A study of Rattus norvegicus with 24 samples.

Results

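The comparison of Gel with Sham in Segment 1 covered 8 of the 24 tissue areas of the study, whose members are set by the treatment and segment in their labels: the 4 Segment 1 areas of wounds given Gel and the 4 Segment 1 areas of Sham wounds. Each side came from 2 numbered specimens with 2 regions each, which the labels call mac1 and mac2. The study profiled day 7 skin wounds of diabetic rats by GeoMx, a method in which RNA probes are hybridised to a tissue section, an area is outlined by immunofluorescence, and the probe tags released from that area by light are sequenced. It had 3 treatments, CuNZ@Gel, Gel and Sham, and 2 segments per region, which gave 24 areas from 6 specimens.

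All groups used here shared the same model. The animals were male SD rats made diabetic with STZ, a toxin of pancreatic beta cells, at 5 weeks of age, and the wounds were splinted full-thickness defects of 8 mm taken 7 days after wounding. Gel wounds received a hydrogel whose composition the labels do not give, and Sham wounds, also diabetic, are labelled Sham with no agent named. The labels name neither the fluorescent markers nor what separates Segment 1 from Segment 2. They do not spell out "mac" and do not say that a numbered specimen was a separate animal. The p-values rest on the spread between specimens of all 3 treatments, pooled in large part over targets, and that spread may be technical.

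Wound repair passes through inflammation, in which macrophages clear debris and direct other cells, and then through the building of granulation tissue. In that tissue fibroblasts lay down fibronectin and collagen, some become contractile myofibroblasts that pull the wound edges together, and new capillaries grow in. In diabetic skin the inflammatory phase is known to last longer and matrix building to lag.

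Values are the deposited scaled signal, and single areas are always listed as specimen 1 mac1, specimen 1 mac2, specimen 2 mac1 and specimen 2 mac2. Means are over the 2 specimens of a group with their SD (n = 2 each). Differences are Gel minus Sham on the log2(signal + 1) scale, with limma's SE and Benjamini-Hochberg adjusted p over 19118 targets, and a target passed below 0.05. A target is called above background in an area when it exceeds the 99th percentile of 1116 targets for olfactory and vomeronasal receptors there, which lay at 11.4 to 14.99 in these 8 areas, and 5553 of the tested targets did so in at least 2 of them. Recovered totals were 322151 to 873465 counts in Gel areas and 490583 to 1476499 in Sham areas, and between 0.110% and 5.81% of targets in an area stood at 1 count. Over targets above background, areas of 1 specimen correlated at 0.908 to 0.924 in Gel and 0.951 to 0.956 in Sham, areas of different specimens at 0.887 to 0.946 in Gel and 0.922 to 0.956 in Sham, and Gel with Sham areas at 0.846 to 0.922.

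Defining genes of several cell types were checked in both groups. Of 20 pan-macrophage markers 7 were above background: Cd68, Csf1r, Lyz2, Fcer1g, Cybb, Laptm5 and Cd53. Their list summed to 888 to 1325 in Gel areas and 1157 to 1523 in Sham areas. Fibroblast markers were above background for 15 of 22 and endothelial markers for 10 of 25. None of 23 keratinocyte and epidermal markers was above background, nor any of 15 neutrophil or 9 mast cell markers, although the tissue is labelled skin. The targets carry mouse-style symbols, and whether each probe detects its rat RNA was not tested. Krt14, a keratin of basal keratinocytes, read 6.60, 2.73, 8.46 and 6.75 in Gel areas and 5.77, 6.49, 7.70 and 5.61 in Sham areas. In areas of this kind fewer cells of a type and less RNA per cell cannot be told apart.

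**Figure D1:**
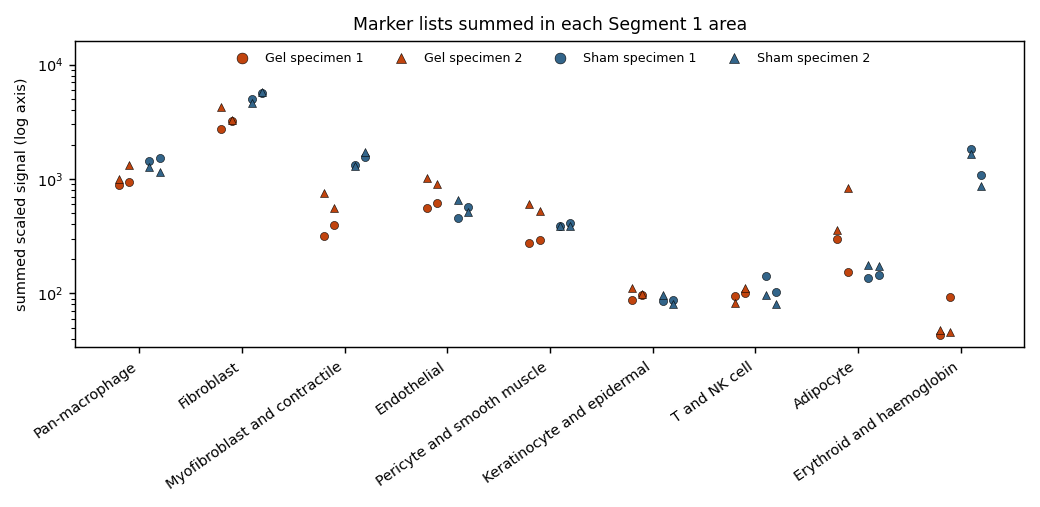
Sum of the scaled signal of 9 marker lists (vertical axis, log scale) in each of the 8 Segment 1 areas, Gel left of Sham, with circles for specimen 1 and triangles for specimen 2. The contractile, fibroblast and haemoglobin sums of the 4 Gel areas lie below those of the 4 Sham areas, and the macrophage, endothelial, keratinocyte and T cell sums overlap.

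In Gel wounds the metallothionein genes Mt1 and Mt2, the lubricin gene Prg4 and the complement genes Cfb and Clu were higher than in Sham wounds. The contractile genes Tagln and Tpm1, the collagen gene Col12a1, the matrix genes Fn1 and Thbs2, the fibroblast integrin gene Itga11, the MHC class II gene H2-Ab1 and the haemoglobin gene Hbb-b2 were lower. In all, 361 of 19118 targets passed (1.89%), 101 of them higher in Gel (0.528%) and 260 lower (1.36%). Among the 5553 targets above background 344 passed (6.19%), 89 higher (1.6%) and 255 lower (4.59%). The list counts given below are to be read beside these shares. The 4 Gel areas did not overlap the 4 Sham areas for 63 of the higher and 194 of the lower targets that passed and were above background. Over all targets above background 3.15% had every Gel area above every Sham area and 8.52% had every Gel area below, and over all 19118 targets these shares were 2.79% and 3.32%. Of the targets that passed, 53 higher and 108 lower ones differed by at least 1 log2 unit. The median difference of the targets above background was -0.11, which became -0.0044 with quantile normalization, where 151 targets were higher and 164 lower (47.9% of calls higher, against 28.0%).

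These p-values lean on a spread pooled over targets, with 55 prior degrees of freedom against 3 from the specimens, and an exact permutation test of 2 specimens against 2 cannot go below p = 0.333. Leaving out Sham specimen 1 gave 188 calls (42 higher), leaving out Gel specimen 1 cut the lower calls to 168, leaving out Gel specimen 2 gave 596, and limma without the trend and robust options gave 55.

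**Figure D2:**
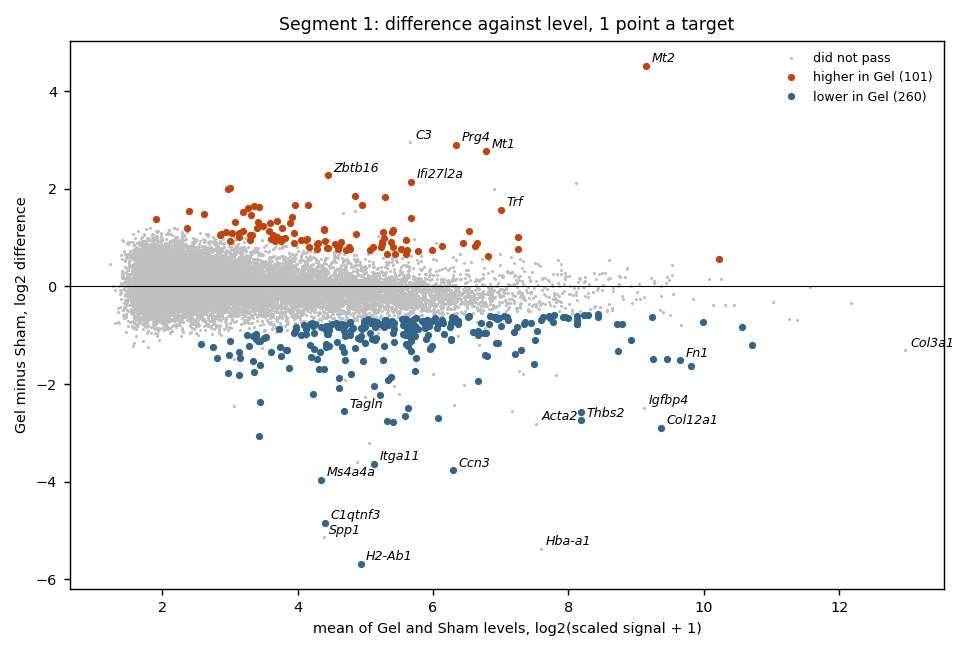
Gel minus Sham log2 difference (vertical axis) against the mean of the Gel and Sham levels on the log2(signal + 1) scale (horizontal axis), 1 point per target. The 101 higher and 260 lower targets are coloured, with Mt2 at 4.52 and H2-Ab1 at -5.68, while grey labelled points such as Hba-a1, Spp1 and C3 also lie far from 0 but did not pass.

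Metallothioneins are small cysteine-rich proteins that bind zinc and copper, and their genes are switched on by metals through metal response elements, short motifs bound by the transcription factor MTF-1, and also by glucocorticoids. Mt2 read 4130.2, 2371, 2298 and 2396 in Gel areas, against 73.6, 124, 128 and 159.8 in Sham areas. Every Gel area lay above every Sham area, and specimen 1 mac1 was the highest. Mt2 averaged 2799 ± 639 in Gel and 121 ± 31.9 in Sham, a difference of 4.52 (SE 0.17, adjusted p = 4.1e-25) or 22.98-fold on this scale. The call held under 21 of 22 alternatives and was lost with quantile normalization. Mt1 read 410.4, 246, 240.2 and 276 in Gel areas, against 41.8, 46.9, 38.7 and 37.5 in Sham areas, again with no overlap, and differed by 2.77 (SE 0.18, adjusted p = 1.1e-17). In Segment 2 the differences were 4.83 for Mt2 and 2.88 for Mt1, and the test between segments passed for neither (adjusted p = 0.937 and 0.992).

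The promoters of both genes are shown because metallothionein genes are the textbook carriers of metal response elements. The core motif was searched as TGCACNC and TGCGCNC on both strands in the 250 bases before the start of each gene in RefSeq's rat build GRCr8, and capitals mark each match. The target Mt2 was matched to the rat gene Mt2A through a synonym. Mt1 lies on the minus strand at chr19:10832976-10833225 and held 6 matches, and Mt2A lies on the minus strand at chr19:10838709-10838958 and held 4, none overlapping another. Of 33469 promoters of the same length, 20.6% held at least 1 match, 89 held at least 4 and 9 held at least 6.
Mt1: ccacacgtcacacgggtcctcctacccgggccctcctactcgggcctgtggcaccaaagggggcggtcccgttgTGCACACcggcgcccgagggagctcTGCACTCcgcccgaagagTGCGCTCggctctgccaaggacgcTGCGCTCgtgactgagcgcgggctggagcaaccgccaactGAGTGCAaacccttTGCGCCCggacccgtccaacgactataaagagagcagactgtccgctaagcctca
Mt2A: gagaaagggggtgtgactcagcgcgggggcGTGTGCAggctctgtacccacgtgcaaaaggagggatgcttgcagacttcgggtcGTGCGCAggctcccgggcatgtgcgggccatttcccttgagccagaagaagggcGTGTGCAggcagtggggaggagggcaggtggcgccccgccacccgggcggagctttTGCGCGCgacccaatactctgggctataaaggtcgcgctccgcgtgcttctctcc
In Mt1 the match nearest the start lay 55 to 49 bases before it, and the same distance was found in Mt2A. A match describes letters in this window and is not evidence of binding in these wounds.

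In the list of metallothioneins and of zinc and copper transport no other gene passed. Of its 21 tested genes 2 rose (Mt1 and Mt2) and 0 fell. An unadjusted p below 0.05 was reached by 7 of them, Mt1 and Mt2 included, and by 1985 of all 19118 targets. The median of all 22 members was -0.13, against 0.03 over all targets. Mtf1, which encodes the metal sensor, read 16.04, 25.2, 26.6 and 16.6 in Gel areas and 25.97, 22.4, 19.96 and 23.5 in Sham areas (difference -0.14, adjusted p = 0.89). Slc39a14, a zinc and iron importer, had a difference of 0.04, and Slc30a1, the zinc exporter known as a classic MTF-1 target, stayed below background in all 8 areas. Of 14 iron genes Trf, the gene of the plasma iron carrier transferrin, rose and Ftl1, the ferritin light chain, fell. Trf averaged 221 ± 13.8 in Gel and 78.6 ± 36.2 in Sham (difference 1.57, SE 0.22, adjusted p = 0.000117), and its call was lost on leaving out either Gel specimen. Ftl1 read 289.6, 380.2, 318 and 306 in Gel areas and 607, 637, 547 and 423 in Sham areas (difference -0.76, adjusted p = 0.00246), a call lost without Sham specimen 1. Of 23 antioxidant genes 0 passed in limma, edgeR or DESeq2 and 6 had an unadjusted p below 0.05. Sod2, the mitochondrial superoxide dismutase, had a difference of 0.44 and Nfe2l2, the regulator of antioxidant genes, one of 0.24.

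**Figure D3:**
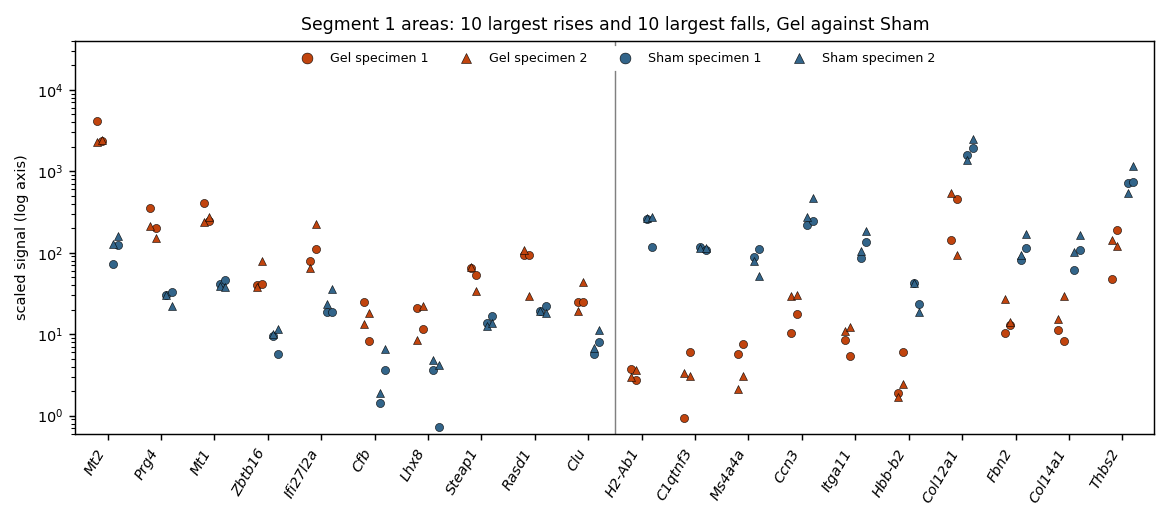
Scaled signal (vertical axis, log scale) of the 10 largest rises, left of the line, and the 10 largest falls, right of it, in each Segment 1 area, with Gel left of Sham for each gene. These genes were chosen among those with no overlap between groups, so the gap is part of the choice, and Mt2 and H2-Ab1 show the widest gaps on each side.

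Prg4 encodes lubricin, a lubricating proteoglycan of joint surfaces. It read 358, 199.6, 215 and 153 in Gel areas, against 30.3, 33.2, 30.3 and 22.4 in Sham areas, a difference of 2.89 (SE 0.21, adjusted p = 2.8e-11) that passed under all 22 alternatives. Zbtb16, a transcription factor gene known to respond to glucocorticoids, read 40.6, 40.9, 37.6 and 79.1 in Gel areas and 9.38, 5.77, 10.1 and 11.6 in Sham areas, and was above background in 4 Gel and 0 Sham areas. Its difference was 2.28 (SE 0.25, adjusted p = 2.5e-08). Ebi3, a subunit shared by the cytokines IL-27 and IL-35, averaged 54.8 ± 3.58 in Gel and 16.3 ± 0.636 in Sham (difference 1.67, adjusted p = 1.9e-09). Steap1, a member of the family of metalloreductases, averaged 55.1 ± 6.13 in Gel and 14.2 ± 1.37 in Sham (difference 1.85, adjusted p = 3.0e-10). The developmental transcription factor genes Lhx8 (1.99) and Zic1 (1.65) were above background in 2 and 4 Gel areas and in 0 Sham areas. The genes of this paragraph met a rule that asks for no overlap and for signal above background in at least 2 of 8 areas. Such splits between the groups are therefore in part set by the choice. Rasd1, another glucocorticoid-induced gene (1.83), Arc, a neuronal immediate-early gene (1.63), and Gpihbp1, which anchors lipoprotein lipase on capillary endothelium (1.60), rose as well.

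Of 19 complement genes, 8 of them above background, 3 rose and 2 fell. Over all targets tested 0.528% rose and 1.36% fell, and 1.6% and 4.59% of those above background. Cfb, factor B of the alternative pathway, read 24.5, 8.18, 13.5 and 18.4 in Gel areas and 1.44, 3.61, 1.92 and 6.66 in Sham areas (difference 2.01, SE 0.28, adjusted p = 4.3e-07). Clu, the complement inhibitor clusterin, read 24.5, 24.5, 19.5 and 43.5 in Gel areas and 5.77, 7.94, 6.73 and 11.2 in Sham areas (difference 1.67, adjusted p = 4.9e-07). Both were above background in at least 3 Gel areas and in no Sham area, a split that the rule of no overlap by which they were named in part sets. C1qb, a chain of the C1q recognition protein, had a difference of 1.14 (adjusted p = 0.000907), lost without Sham specimen 1 or Gel specimen 2, while its partners C1qa (-0.15) and C1qc (0.47) did not pass. The C5a receptor gene C5ar1 (-0.96) and the lectin pathway protease gene Masp1 (-1.48) fell, and the C5ar1 call was lost without Sham specimen 1 or Gel specimen 1.

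C3, the central component of the cascade, read 159, 80.4, 73.6 and 402 in Gel areas and 10.1, 11.5, 19.7 and 37.1 in Sham areas. Every Gel area was higher, but the specimens of each group differed, and the difference of 2.95 (SE 0.61) had an adjusted p of 0.269. It did pass under 6 alternatives, among them DESeq2 and leaving out either Sham specimen.

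Of 10 genes of antigen presentation by MHC class II, 6 of them above background, 2 fell and 1 rose. Over all targets tested 1.89% passed, and 6.19% of those above background. H2-Ab1, named in the files by its mouse symbol and encoding a class II beta chain, read 3.77, 2.73, 2.96 and 3.68 in Gel areas, against 258, 118, 266 and 272 in Sham areas. It was above background in 0 Gel and 4 Sham areas, and its difference of -5.68 (SE 0.23, adjusted p = 1.6e-27) was the largest that passed. H2-Eb1, another class II beta chain, read 148, 64.05, 200.5 and 371 in Gel areas and 134, 77.9, 201 and 193 in Sham areas (difference 0.20, adjusted p = 0.966). Cd74, the invariant chain, read 92.5, 53.8, 181 and 283 in Gel areas and 120.5, 56.3, 138 and 175 in Sham areas (difference 0.16, adjusted p = 0.976). For both the groups overlapped. Ifi30, a lysosomal thiol reductase, had a difference of -0.63 (adjusted p = 0.0293, lost under 14 of 22 alternatives, without Sham specimen 1 or Gel specimen 1 among them), and H2-Ob (1.12) stayed below background in all areas. The H2-Ob call was lost under 5 of 20 alternatives, those without Sham specimen 2 and without Gel specimen 2 included.

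Among 19 tested pan-macrophage genes, 7 of them above background, 2 fell and 0 rose. Over all targets tested 1.36% fell, and 4.59% of those above background. Csf1r, the receptor for the macrophage growth factor CSF1, read 108, 101, 127 and 229 in Gel areas and 217, 259, 203 and 220.4 in Sham areas (difference -0.74, adjusted p = 0.0249). Cd53, a leukocyte tetraspanin, had a difference of -0.70 (adjusted p = 0.0328). Both groups overlapped for these genes, and each call was lost under 13 of 22 alternatives. Without Sham specimen 1 both calls were lost, without Sham specimen 2 that of Csf1r, without Gel specimen 1 that of Csf1r and without Gel specimen 2 that of Cd53. Cd68, a lysosomal glycoprotein of macrophages, averaged 196 ± 7.89 in Gel and 287 ± 109 in Sham (difference -0.51, adjusted p = 0.22).

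Of 20 repair macrophage and scavenger genes 0 passed in limma, 5 had an unadjusted p below 0.05, and edgeR and DESeq2 called 1 each. Arg1, the arginase of alternatively activated macrophages, read 33.96, 189, 245 and 10.4 in Gel areas and 228, 277, 156 and 95.7 in Sham areas (adjusted p = 0.403), and the mannose receptor gene Mrc1 read 81.1, 74.9, 88.8 and 50.3 in Gel areas and 67.1, 91.6, 72.9 and 50.5 in Sham areas (adjusted p = 0.951). Spp1, which encodes osteopontin, read 1.89, 1.36, 3.81 and 3.68 in Gel areas and 827, 320.3, 194 and 3.50 in Sham areas. One Sham area stood at the Gel level, and the difference of -5.13 had an SE of 1.65 (adjusted p = 0.472). Ms4a4a, a tetraspanin-like gene of macrophages, did fall. It read 5.66, 7.49, 2.11 and 3.07 in Gel areas and 88.01, 113, 79.1 and 51.2 in Sham areas (difference -3.96, SE 0.34, adjusted p = 6.4e-05).

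Inflammatory mediators were mostly near background. Over all targets tested 1.89% passed, and 6.19% of those above background, which is the measure for the counts here. Of 21 cytokine and chemokine genes 1 rose, Il1rn, the gene of the interleukin-1 receptor antagonist, at 51.4 ± 19.2 in Gel and 29.6 ± 1.11 in Sham (difference 0.81, adjusted p = 0.0253). Of the 22 alternatives 12 lost that call, those without Sham specimen 1, Sham specimen 2 and Gel specimen 1 included. Of 18 interferon-inducible genes 1 rose, Ifi27l2a, which read 79.2, 112, 64.7 and 224 in Gel areas and 18.8, 18.8, 23.8 and 35.7 in Sham areas (difference 2.14, adjusted p = 5.7e-12). Of 19 lysosome and lipid-handling genes the cholesterol exporter gene Abca1 (-0.99) and the tetraspanin gene Cd63 (-0.63) fell, both lost without Sham specimen 1.

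Of 16 contractile genes, 10 of them above background, 4 fell and 0 rose, 15 had a negative difference, and the median was -0.70. Over all targets tested 1.36% fell, and 4.59% of those above background. Tagln, which encodes the actin-binding protein transgelin, read 8.49, 6.81, 13.96 and 10.4 in Gel areas, against 59.2, 62.8, 47.1 and 81.3 in Sham areas. The groups lay far apart, at 9.92 ± 3.21 in Gel and 62.6 ± 2.30 in Sham (difference -2.56, SE 0.21, adjusted p = 6.6e-14). Tpm1, a tropomyosin, read 33.96, 42.9, 90.9 and 49.7 in Gel areas and 185, 205, 182 and 220.1 in Sham areas (difference -1.94, adjusted p = 3.5e-08). Both calls held under all 22 alternatives. Cald1, caldesmon (-0.93), and Actn1, an actinin that cross-links actin (-0.77), fell by less, and both calls were lost without Gel specimen 1, that of Cald1 also without Sham specimen 2 and that of Actn1 without Sham specimen 1.

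Acta2, the smooth muscle actin that marks myofibroblasts, read 33.96, 33.4, 146 and 129 in Gel areas, against 486, 594, 373 and 515 in Sham areas. Every Gel area was below every Sham area, but the Gel specimens differed from each other, and the difference of -2.81 (SE 0.80) had an adjusted p of 0.409. Tpm2, another tropomyosin, had a difference of -2.43 (adjusted p = 0.0750), and Postn, the gene of periostin, read 46.2, 42.2, 95.2 and 107 in Gel areas and 108, 109.7, 146 and 323 in Sham areas (adjusted p = 0.664).

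Of 18 collagens, 13 of them above background, 5 fell and 1 rose, with a median of -0.67 over the list. Over all targets tested 1.36% fell, and 4.59% of those above background. Col12a1, which encodes a collagen that associates with fibrils, read 143, 456, 539 and 95.05 in Gel areas, against 1584, 1905, 1361 and 2516 in Sham areas. The specimen means were close within each group, 308 ± 12.2 in Gel and 1841 ± 137 in Sham (difference -2.89, SE 0.15, adjusted p = 1.2e-22), although the regions within each Gel specimen differed, and the call was lost with either region alone. Col14a1, of the same collagen class, read 11.3, 8.18, 15.2 and 29.4 in Gel areas and 62.04, 107, 101 and 165 in Sham areas (difference -2.75, adjusted p = 0.00192). Col5a1, which starts fibril assembly, averaged 439.9 ± 129 in Gel and 1229.8 ± 301 in Sham (difference -1.48, adjusted p = 1.0e-08). Col1a2, a chain of type I collagen, had a difference of -1.63 (adjusted p = 0.0111), lost without either Gel specimen, and Col6a3 one of -0.69.

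The partner chain Col1a1 read 86.8, 99.5, 166 and 137 in Gel areas and 268, 356, 397 and 829 in Sham areas, with no overlap, and its difference of -1.82 did not pass (adjusted p = 0.0915), though it did under 13 of 22 alternatives, edgeR and DESeq2 among them. Col3a1, the main collagen of early granulation tissue, read 3916, 3215, 5826 and 9164 in Gel areas and 8715, 11671, 9661 and 25513 in Sham areas (difference -1.31, adjusted p = 0.518), and the highest Gel area exceeded the lowest Sham area. Col4a1, a collagen of basement membranes, was the member that rose (0.56, adjusted p = 0.0425), with overlapping groups and a call lost under 16 of 22 alternatives, either Sham specimen or Gel specimen 2 being left out in 3 of them. Of 19 collagen-modifying enzymes 5 fell and 0 rose, among them Plod2, a lysyl hydroxylase (-1.08), P3h1, a prolyl hydroxylase (-0.75), Loxl1, a lysyl oxidase (-0.66), and the collagen chaperone gene Serpinh1 (-0.71). Without Sham specimen 2 the calls of P3h1, Loxl1 and Serpinh1 were lost, as were Loxl1 without Gel specimen 1 and Serpinh1 without Gel specimen 2. Neither edgeR nor DESeq2 called any member of that list.

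Of 25 matricellular and matrix glycoprotein genes, 15 of them above background, 6 fell and 1 rose, with a median of -0.65 over the 27 members. Over all targets tested 1.36% fell, and 4.59% of those above background. Fn1, fibronectin, the provisional matrix of a wound, read 324, 581, 783 and 348 in Gel areas, against 1299, 1460.2, 1015 and 1767 in Sham areas (difference -1.51, SE 0.15, adjusted p = 6.6e-11). Thbs2, a thrombospondin that restrains angiogenesis in mice, read 47.2, 189, 145 and 121 in Gel areas, against 711, 740.2, 535 and 1153 in Sham areas (difference -2.74, SE 0.16, adjusted p = 2.7e-20). For both the groups did not overlap, which for Thbs2 was a condition of its choice. Over all targets above background 8.52% had every Gel area below every Sham area. Both calls held under all 22 alternatives. Ccn3, a matricellular signalling protein, read 10.4, 17.7, 29.6 and 30.7 in Gel areas and 219, 245, 275 and 468 in Sham areas (difference -3.76, SE 0.41, adjusted p = 0.0209). The microfibril gene Mfap2 averaged 20.7 ± 2.55 in Gel and 123 ± 30.6 in Sham (difference -2.49), and Mfap5 fell by less (-1.38). Fbn2, the fibrillin of developing microfibrils and no member of that list, read 10.4, 12.9, 27.1 and 14.1 in Gel areas and 80.8, 115, 93.1 and 169.9 in Sham areas (difference -2.79, adjusted p = 1.2e-15).

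Of 10 small leucine-rich proteoglycans, which bind and space collagen fibrils, Bgn, biglycan (-1.49), and Lum, lumican (-0.83), fell and 0 rose, and the Bgn call was lost without either Sham specimen. Lum read 948, 1099, 1181 and 1336 in Gel areas and 1891, 2000.5, 1735 and 2528 in Sham areas. Of 19 matrix proteases and inhibitors, 10 of them above background, 3 fell and 0 rose. They were Mmp14, the membrane-bound collagenase (-0.72), Adam12 (-1.30) and Adam19 (-0.99). Over all targets tested 1.36% fell, and 4.59% of those above background. Mmp14 read 667, 806, 1036 and 689 in Gel areas and 1306, 1361, 1230.5 and 1306 in Sham areas, with no overlap. Its call was lost under 8 of 22 alternatives, edgeR and the fit of Gel and Sham specimens only among them. Of 15 basement membrane genes only Col4a1 passed, and edgeR and DESeq2 called 0 of them.

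Of 22 fibroblast markers, 15 of them above background, 7 fell and 0 rose, with a median of -0.42. Over all targets tested 1.36% fell, and 4.59% of those above background. The list's sum was 2722 to 4245 in Gel areas and 4655 to 5759 in Sham areas. The list shares Mfap5 with the glycoproteins, Lum with the proteoglycans and Mdk with the growth factors. Itga11, the fibroblast collagen receptor subunit, read 8.49, 5.45, 10.995 and 12.3 in Gel areas, against 87.3, 136, 104 and 183 in Sham areas (difference -3.64, SE 0.20, adjusted p = 5.0e-21). C1qtnf3, a secreted C1q/TNF-related protein, read 0.943, 6.13, 3.38 and 3.07 in Gel areas, against 117, 108, 114 and 114 in Sham areas (difference -4.85, SE 0.20, adjusted p = 1.6e-27). Both were above background in 0 Gel and 4 Sham areas, but both met a rule that asks for no overlap, so the separation is part of the choice. Fap, the fibroblast activation protein, averaged 33.5 ± 5.76 in Gel and 67.02 ± 1.43 in Sham (difference -0.99, adjusted p = 0.000420).

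Other widely used fibroblast genes did not pass. Prrx1, a mesenchymal transcription factor, averaged 176 ± 7.11 in Gel and 125 ± 10.2 in Sham (difference 0.47, adjusted p = 0.177). Vim, the intermediate filament vimentin, averaged 1282 ± 206 in Gel and 1612 ± 310.4 in Sham (adjusted p = 0.312). Pdgfra, a receptor of fibroblasts, had a difference of -0.44 (adjusted p = 0.32). Whether fewer fibroblasts in the outlined areas had a part in the matrix differences was not tested.

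Among 30 wound growth factors and receptors, 19 of them above background, 5 fell and 1 rose. Over all targets tested 1.36% fell, and 4.59% of those above background. Mdk, the heparin-binding growth factor midkine, read 12.3, 19.1, 22.4 and 20.2 in Gel areas and 99.6, 129.9, 109 and 145 in Sham areas (difference -2.66, SE 0.19, adjusted p = 3.1e-17). Wnt4, a Wnt ligand, read 9.43, 9.54, 12.3 and 3.07 in Gel areas and 47.6, 35.3, 37.8 and 37.1 in Sham areas (difference -2.20, adjusted p = 2.8e-11). Tgfbr1, the type I receptor for TGF-beta, averaged 83.2 ± 0.0459 in Gel and 187 ± 12.2 in Sham (difference -1.16, adjusted p = 1.7e-06). Fgf10, a growth factor from mesenchyme for epithelium, rose (1.53, adjusted p = 0.000221), a call lost without Gel specimen 1. The secreted Wnt modulator gene Sfrp2 read 169.8, 61.3, 95.6 and 197 in Gel areas and 603, 712, 388 and 1520.4 in Sham areas (difference -2.57, adjusted p = 3.5e-18), and Gpc1, a heparan sulfate proteoglycan that binds growth factors, averaged 27.6 ± 2.17 in Gel and 174 ± 30.5 in Sham (difference -2.70). Igfbp4, which holds insulin-like growth factors, read 143, 179, 244 and 465 in Gel areas, against 1591, 1585, 1317 and 888 in Sham areas, and its difference of -2.49 did not pass (adjusted p = 0.144), though it did under 13 of 22 alternatives.

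**Figure D4:**
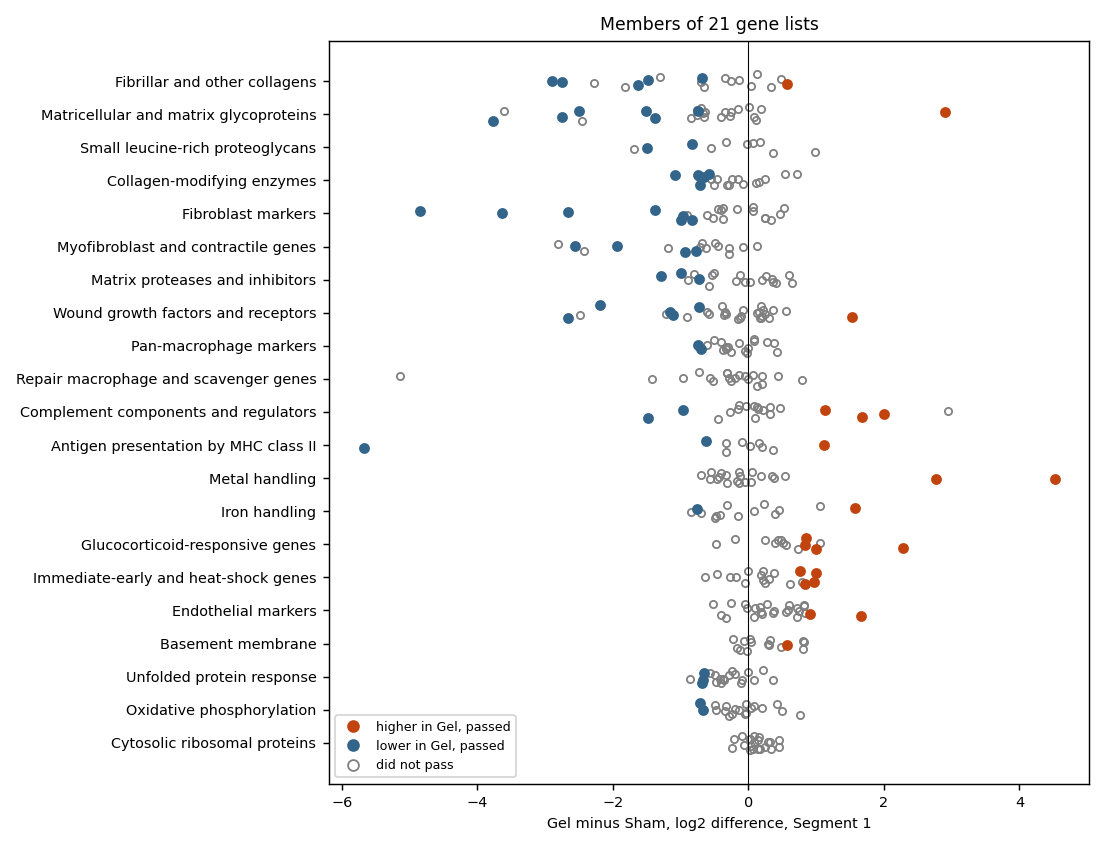
Gel minus Sham log2 difference (horizontal axis) of each tested member of 21 gene lists (rows). Filled points passed the test, and open points did not. The collagen, glycoprotein, fibroblast and contractile rows reach further left than right apart from Prg4 and Col4a1, and in the metal row Mt1 and Mt2 stand alone to the right.

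Of 25 endothelial markers, 10 of them above background, 2 rose and 0 fell, with a median of 0.37. Over all targets tested 0.528% rose, and 1.6% of those above background. The list summed to 560.4 to 1013 in Gel areas and 455 to 649 in Sham areas. Erg, a transcription factor of endothelium, read 31.1, 59.96, 60.9 and 59.5 in Gel areas and 20.2, 25.97, 33.9 and 28.4 in Sham areas (difference 0.91, adjusted p = 0.00261), a call lost without Sham specimen 1 or Gel specimen 2. Gja5, a connexin of arterial endothelium, read 40.6, 40.2, 43.6 and 12.3 in Gel areas and 12.99, 7.21, 7.21 and 9.81 in Sham areas (difference 1.66, adjusted p = 4.2e-05). In each case the groups overlapped. Pecam1 was below background in all 8 areas. Of 12 pericyte and smooth muscle markers 1 rose, Mcam (0.76, adjusted p = 0.00395, lost without Gel specimen 2).

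Of 8 erythroid genes 1 fell and 0 rose, 5 had a positive difference, and the median was 0.06. Over all targets tested 1.36% fell, and 4.59% of those above background. Hbb-b2, a beta globin of red cells, read 1.89, 6.13, 1.69 and 2.45 in Gel areas, against 42.6, 23.8, 42.3 and 18.6 in Sham areas (difference -3.06, SE 0.29, adjusted p = 6.8e-12). Globin genes have near-identical copies, as do metallothionein genes, and the labels do not say whether the probes tell them apart. Hba-a1, an alpha globin, read 16.98, 66.8, 22.4 and 26.98 in Gel areas, against 1752, 1030.2, 1584 and 823 in Sham areas, with no overlap, and its difference of -5.37 (SE 0.65) had an adjusted p of 0.104. These 2 genes were above background and the others were not, and both passed when only targets above background were tested. DESeq2 called 2 members of the list. The list, whose Sham sum is mostly Hba-a1, summed to 43.4 to 92.7 in Gel areas and 865 to 1818 in Sham areas. The part of blood content in other differences was not tested.

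Other cell types had few markers above background: 3 T and NK cell, 2 Schwann cell and nerve and 2 skeletal muscle markers. Over all targets 1.89% passed, and 6.19% of those above background. Of 14 T and NK cell markers 1 fell, Il7r (-1.24, adjusted p = 0.00108), of 10 Schwann cell and nerve markers 1 fell, Ncam1 (-2.04, adjusted p = 1.9e-07), and of 13 skeletal muscle markers 1 fell, Tnnt3 (-1.31, adjusted p = 0.000319). The Il7r call was lost without Sham specimen 1 and that of Tnnt3 without Sham specimen 2. By limma, edgeR and DESeq2 alike, 0 of 10 B and plasma cell, 9 mast cell, 12 neutrophil, 14 adipocyte and 23 keratinocyte markers passed, with 1 keratinocyte marker and no other at an unadjusted p below 0.05. Fabp4, the fatty acid carrier of adipocytes and some endothelial cells and macrophages, read 221, 72.9, 263 and 729 in Gel areas and 28.1, 49.8, 94.7 and 89.003 in Sham areas (adjusted p = 0.592).

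Over all targets tested 0.528% rose, and 1.6% of those above background. Of 14 glucocorticoid-responsive genes, 8 of them above background, 4 rose and 0 fell, 12 had a positive difference, and the median was 0.53. Besides Zbtb16 these were Dusp1, a phosphatase that switches off MAP kinases, Ddit4, an inhibitor of mTORC1, and Nfkbia, the inhibitor of NF-kappa-B. Dusp1 read 47.2, 57.2, 48.2 and 64.4 in Gel areas and 20.2, 25.2, 43.04 and 22.1 in Sham areas (difference 1.00, adjusted p = 0.000715). Ddit4 had a difference of 0.83 (adjusted p = 0.0230) and Nfkbia one of 0.85 (adjusted p = 0.0230). The calls of these 3 were lost with DESeq2 and without Sham specimen 1, Ddit4 and Nfkbia also without Sham specimen 2, Ddit4 without Gel specimen 2 and Nfkbia without Gel specimen 1, and Zbtb16 was the list's only call by DESeq2. Other textbook targets did not pass: Per1 had a difference of 0.55 (adjusted p = 0.241), Tsc22d3 one of 0.52 (adjusted p = 0.302), and Fkbp5 and Sgk1 were below background in all 8 areas.

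Of 18 immediate-early and heat-shock genes, 13 of them above background, 4 rose and 0 fell. Over all targets tested 0.528% rose, and 1.6% of those above background. The 4 were Dusp1, Fosb (0.97), Zfp36 (0.76), which destabilises inflammatory mRNAs, and the small heat-shock protein gene Hspb1. Hspb1 read 118, 117, 166 and 127 in Gel areas and 56.3, 75.7, 86.6 and 76.4 in Sham areas (difference 0.83, adjusted p = 0.00182). With limma's trend and robust options off, none of the 4 passed. The calls of Dusp1, Fosb and Hspb1 were lost without Sham specimen 1, those of Fosb and Zfp36 without Sham specimen 2, and that of Fosb without Gel specimen 2.

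Of 20 oxidative phosphorylation genes 2 fell, Sdhb (-0.71) and Uqcrb (-0.66), lost under 12 and 15 of 22 alternatives, those without Sham specimen 1 and without Gel specimen 1 included. Of 20 unfolded protein response genes 3 fell, the chaperone gene Hspa5 (-0.69), Pdia6 (-0.65) and Manf (-0.67), with a median of -0.37 and no call by edgeR or DESeq2 or, for these 3, without Sham specimen 1. Manf was lost without Gel specimen 1 too. Of 16 glycolysis genes 0 passed in limma, edgeR or DESeq2, and 2 had an unadjusted p below 0.05. Of 21 cytosolic ribosomal protein genes 0 passed in limma, edgeR or DESeq2, and 1 had an unadjusted p below 0.05. Their median was 0.08. Of 11 hypoxia genes 1 rose, Ddit4. Above background were 13 of the oxidative phosphorylation and 11 of the unfolded protein response genes. Over all targets tested 1.36% fell, and 4.59% of those above background.

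The series title speaks of epigenetic change. Of 28 histone and DNA modifying enzymes, 17 of them above background, 1 rose. Over all targets 1.89% passed, and 6.19% of those above background, so 1 call does not set the list apart. The gene that rose was Uhrf1, which guides maintenance DNA methylation and is also a proliferation gene. It read 25.5, 18.4, 21.99 and 12.3 in Gel areas and 6.49, 13.7, 6.73 and 10.9 in Sham areas (difference 0.99, adjusted p = 0.0105), and the call was lost without either Sham specimen or Gel specimen 1. The list's median was -0.07. Of 17 proliferation genes Uhrf1 alone passed, and the median was 0.35, with Cdk1, the mitotic kinase, at 0.65 (adjusted p = 0.0703).

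Some wide differences did not pass. Of the targets above background, 15 differed by more than 2 log2 units without passing. Apart from those already described, Mfap4, a microfibril glycoprotein, read 3.77, 3.41, 10.6 and 19.6 in Gel areas and 46.9, 64.2, 122 and 285 in Sham areas (adjusted p = 0.435). Slpi, a leukocyte protease inhibitor, read 1000, 816, 921 and 147 in Gel areas and 164, 105, 146 and 119 in Sham areas (adjusted p = 0.31), with 1 Gel area within the Sham range. Spon1, an extracellular matrix protein gene, read 35.8, 28.6, 80.4 and 139 in Gel areas and 324, 330.4, 323 and 429.6 in Sham areas (adjusted p = 0.38). A miss of the threshold does not show that these genes were alike in both groups.

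The same comparison was made in Segment 2 of the same specimens, and the difference between segments was tested within specimens. It passed for 10 targets, all with Gel minus Sham higher in Segment 1 (0.0523%), and for 0 in the other direction, while 1013 targets had an unadjusted p below 0.05. The split depended on the settings, with 6 higher and 9 lower under quantile normalization, 17 and 3 with Gel and Sham specimens only, and 0 and 1 with mac1 areas only. Acta2 led them. Gel minus Sham was -2.81 in Segment 1 and -4.04 in Segment 2 (difference between segments 1.23, SE 0.19, adjusted p = 0.000394). For Acta2 limma used an SD of 0.187 where its own specimens gave 0.340, and the call was lost under 7 of 18 alternatives. For Igfbp4 it used 0.156 where the specimens gave 0.294. The SD used was below its own for Col15a1, Tmsb10, Actg1 and Inhba too, and above its own for Vim, Mmp13, Prrx1 and Actn1. In Segment 2 Acta2 read 24.5, 8.46, 77.7 and 129 in Gel areas and 714, 836, 425 and 709 in Sham areas.

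The other 9 were Igfbp4, Vim, Mmp13, Prrx1, Col15a1, Tmsb10, Actn1, Actg1 and Inhba, of which Vim, Actn1, Actg1 and Tmsb10 encode cytoskeletal or actin-binding proteins. Prrx1 had values of opposite sign, at 0.47 in Segment 1 and -0.46 in Segment 2 (difference between segments 0.93, SE 0.19, adjusted p = 0.0252). It read 124, 105, 200.3 and 89.9 in Gel areas and 132, 199, 188 and 169.7 in Sham areas of Segment 2. Mmp13, a collagenase, stood at -0.58 in Segment 1 and -2.002 in Segment 2 (difference between segments 1.42, SE 0.29, adjusted p = 0.0252). The Prrx1 and Mmp13 calls were each lost under 9 of 18 alternatives. Inhba, the activin A subunit, stood at -1.21 in Segment 1 and -2.35 in Segment 2. Leaving out either Sham specimen left 0 calls, and leaving out Gel specimen 1 left 1. Segment 2 areas were shallower, with 139680 to 688507 counts in Gel and 118812 to 183292 in Sham, and the part of depth in this difference was not tested.

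**Figure D5:**
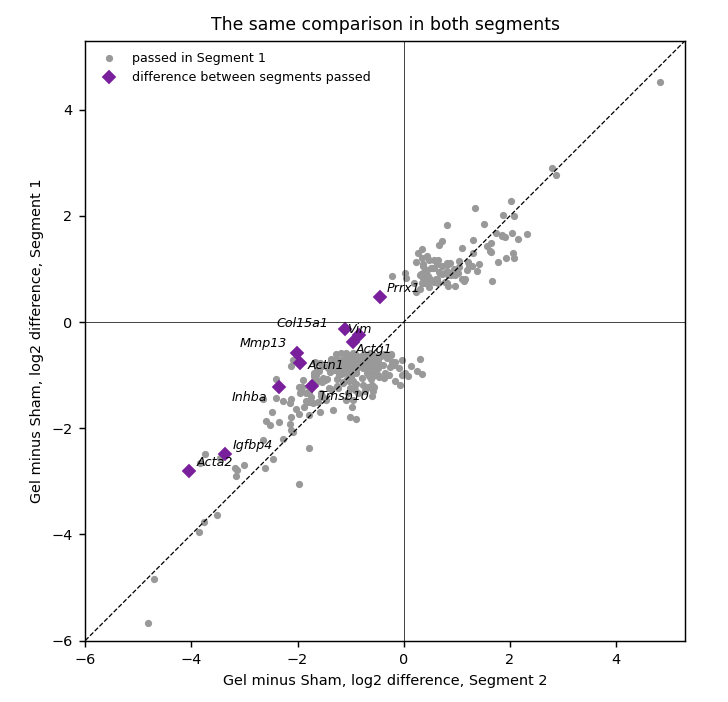
Gel minus Sham log2 difference in Segment 1 (vertical axis) against that in Segment 2 (horizontal axis) for the targets that passed in Segment 1 (grey) and the 10 whose difference between segments passed (diamonds). The dashed line marks equal differences, and the 10 diamonds lie above it.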

How the data were processed

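Each of the 24 areas had its own deposited table of 19963 probe targets, named with mouse-style symbols of which 16665 equal a rat symbol, and 1 negative probe. Per the labels' protocols, probe tags of fixed sections were released by ultraviolet light from areas of positive immunofluorescence and sequenced. The authors deposited a scaled signal whose 75th percentile is 12.26 in every area apart from Gel specimen 1 mac2 of Segment 2, where it is 12.05. For the counting software and genome build, the record is: not given in the sources used here. Low values were whole multiples of 1 count, so counts could be recovered (within 0.01 count for at least 99.98% of targets). Recovered totals of the 8 areas ran from 322151 to 1476499.

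The 2 areas of a specimen were averaged as log2(signal + 1), with a pseudocount of 1. Of all targets, 19118 were kept by a filter on low values. limma 3.58.1 in R 4.3.3 (trend and robust) was fitted on the Segment 1 means of all 6 specimens, CuNZ@Gel included, with treatment as the term, and p-values were adjusted by Benjamini-Hochberg (threshold 0.05). The difference between segments was tested in the same way on within-specimen differences. Since the values were scaled signal, edgeR 4.0.16 and DESeq2 1.42.0 on recovered counts summed per specimen served as alternatives. The code was tested on simulated data.

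The comparison and its 39 gene lists (689 genes) were chosen with earlier results of these data known. Genes named by rule came from 4 sources. The first was the 15 targets that rose most and the 15 that fell most among those that passed, had separate groups and were above background in at least 2 of 8 areas. The second was, for each list, at most 4 passing genes, taken by lowest p. The third was 16 genes fixed whatever their values, and the last the 5 lowest p of the test between segments. Other named members of the lists were picked for their roles or after their values were seen. In all, 22 alternatives were run, on scaling, filter, pseudocount, averaging, region, model, block, left-out specimens and depth.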

Additional observations from a re-analysis of the deposited data

Results flagged for a closer look

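Single areas stood apart from the other 3 of their group by Dixon's criterion in 6 of 86 groups tested, and chance alone gives about 1 in 20. Mt2 was highest in Gel specimen 1 mac1, at 4130. In Gel specimen 2 mac2 Zbtb16 was high at 79.1 and Rasd1 low at 29.4. H2-Ab1 was low in Sham specimen 1 mac2, at 118. In Sham specimen 2 mac2 Gpc1 was high at 230.6 and Mmp13 low at 5.61. Mt2, Zbtb16, Rasd1, H2-Ab1 and Gpc1 were named by a rule that asks for no overlap between groups, so their separation is part of the choice.

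The Gel minus Sham log2 difference differed between Segment 1 and Segment 2 by limma for 10 targets. Segment 1 minus Segment 2 was 1.23 for Acta2, 0.876 for Igfbp4, 0.587 for Vim, 1.42 for Mmp13, 0.927 for Prrx1, 0.964 for Col15a1, 0.531 for Tmsb10, 1.17 for Actn1, 0.597 for Actg1 and 1.14 for Inhba. The number of specimens, 2 a treatment, limits all of these.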

How the results depend on the processing

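Of the 78 genes named by rule that passed, 22 passed under each of the 22 alternatives, 21 were lost under 1 to 3, 35 under 4 or more, and 0 reversed in direction. Against 361 calls (101 higher, 260 lower), the mac1 areas alone gave 170 (62 higher, 108 lower), the mac2 areas alone 186 (27 and 159), limma without trend and robust 55 (14 and 41) and DESeq2 163 (40 and 123). The higher calls fell to 56 with median scaling (18.2% of its calls, against 28.0%), and the lower calls to 164 with quantile normalization. Leaving out 1 specimen gave 188 to 596 calls (42 to 133 higher, 146 to 463 lower). Members of the lists called, 75, became 44 with mac1 areas, 45 with mac2 areas and 27 without trend and robust. The 10 calls between segments became 1 with median scaling, 1 with mac1 areas, 23 with mac2 areas, 0 without trend and robust, 20 with Gel and Sham specimens only (17 higher, 3 lower), 3 with the specimen number as a replicate block, and 0 to 22 with 1 specimen left out. Same-numbered specimens did not deviate together (correlations of 0.0757 for Gel and Sham, -0.0871 for Gel and CuNZ@Gel and -0.0841 for CuNZ@Gel and Sham). With 2 specimens a treatment these values cannot settle whether the numbers mark a pairing. With the replicate block the Segment 1 comparison gave 308 calls, 289 of them shared. edgeR gave 350, of which 286 were shared. Reversals were seen for genes that did not pass in Segment 1: Pecam1 was -0.0394 with mac2 areas, Krt14 0.14 with mac1 areas and -0.47 to 0.22 with 1 specimen left out, Cd74 -0.67 to 0.99 with 1 specimen left out, and Mmp13 0.70 with mac2 areas and -1.51 to 0.36 with 1 specimen left out. Vim was 0.0652 with quantile normalization. The cause of these shifts was not tested. Counts thinned to the lowest total gave 259 calls in Segment 1 (74 higher, 185 lower). The test between segments was not repeated on thinned counts, and up to 46.4% of targets in a Sham area of Segment 2 stood at 1 count.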

Other observations

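The next genes lie outside the lists and were chosen after their values were seen. Cdh11, a cadherin of mesenchymal cells, read 6.60, 17.7, 22.8 and 25.1 in Gel areas, against 73.6, 90.2, 65.2 and 90.8 in Sham areas (difference -2.22, adjusted p = 2.9e-05, limma). Itga8, an integrin subunit of fibroblasts and smooth muscle, had a difference of -1.88, and Palld, a protein of actin bundles, one of -1.86. The Wnt modulator gene Sfrp4 (-1.73), the Wnt receptor gene Fzd2 (-1.41) and the planar polarity gene Ptk7 (-1.42) fell too. These 6 were drawn from passing targets whose groups did not overlap, so the gap is part of the choice. Fstl1, a secreted glycoprotein, read 192, 273, 364 and 264 in Gel areas, against 649, 760.4, 509.8 and 808 in Sham areas (difference -1.33, adjusted p = 2.2e-08), and Lgals1, galectin-1, had a difference of -1.10.

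Other unlisted targets rose. Cav1, the caveolin of endothelial cells and adipocytes, read 163, 189, 251 and 279.6 in Gel areas, against 82.96, 90.2, 122 and 139 in Sham areas (difference 1.02, adjusted p = 0.00178). Dll4, the Notch ligand of sprouting endothelium, had a difference of 1.12 (adjusted p = 5.4e-05), though its areas overlapped between groups. Steap2, a metalloreductase, averaged 31.2 ± 9.60 in Gel and 13.1 ± 1.21 in Sham (difference 1.17, adjusted p = 0.000317, n = 2 each by limma).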
